A study of Homo sapiens with 18 samples.

Results

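H3K4me3 peaks of NB4 cells were compared between untreated cells and cells exposed to maltonis, with the weight on how peak width, strength and edges changed by class. The members were chosen by mark and chromosome: the 6 H3K4me3 peak lists of the series, of 18 samples in all, restricted to chromosomes 1 to 22. The 6 lists together held 98259 peaks. NB4 is an established acute promyelocytic leukemia cell line, and it was the single cell line used, so the values describe that line. Maltonis is a synthetic compound built from maltol, a hydroxypyrone. The maltonis group was treated at 10 µM for 24 h and the control group was left untreated, each as 3 biological replicates with 1 ChIP-seq library per replicate, made with the same H3K4me3 antibody. Both groups were grown in the same serum-supplemented medium.

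Trimethylation of lysine 4 on histone H3 is deposited by SET1 and MLL family methyltransferases and is concentrated on the nucleosomes around active transcription start sites. A narrow peak usually covers the nucleosomes flanking one promoter, whereas broad domains are known at genes that define a cell's identity. H3K27ac marks active promoters and enhancers, and H3K9me3 marks heterochromatin. These are background facts and not results of the lists.

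Each list gave the position of a peak, its mean fold enrichment over background across the peak (called strength here), and its −log10 q value. Strength was read as a rank within each list, or as a ratio of 2 percentiles of the same list, because the lists hold no read totals. The study's methods call the read numbers of a mark comparable across its samples, and those totals were not used here. Depth, fragment length and the part that each could have in peak width were not tested. The numbers of peaks were 17058, 16909 and 17333 in the untreated lists and 15955, 15418 and 15586 in the maltonis lists, and the covered sequence was 23.8, 23.4 and 23.5 Mb against 25.2, 25.2 and 25.2 Mb. Peaks of the maltonis lists were therefore fewer and covered more sequence, with no overlap between conditions on either value. As a check of the label, 90.7% of the peaks of an untreated list and 92.0% of those of a maltonis list overlapped on average an H3K27ac peak of the same condition and replicate, and 16.5% and 20.4% overlapped an H3K9me3 peak.

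Peak width was higher after maltonis at every percentile examined, and in relative terms most at the 25th percentile and the median. The median width was 1291, 1284 and 1257 bp in the untreated lists and 1520, 1573 and 1551 bp in the maltonis lists. The means were 1277 ± 18.0 and 1548 ± 26.6 bp (SD, n = 3 lists each), a difference of 21.2%. The 2 conditions did not overlap, and the exact two-sided permutation test over the lists gave p = 0.1, the smallest value that 3 lists against 3 allow; no comparison of lists in this design can go below it.

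The difference was not the same along the distribution. At the 10th percentile the width was 482, 480 and 479 bp in the untreated lists and 534, 553 and 550 bp in the maltonis lists, a difference of 13.6%. It was 22.9% at the 25th percentile, 17.2% at the 75th and 13.1% at the 90th. At the 99th percentile the widths were 3940.4, 3828 and 3779 bp against 4049, 4177 and 4194 bp, a difference of 7.56%. In base pairs the difference was 65.2 bp at the 10th percentile and lay between 271 and 307 bp from the median to the 99th. The value at the 10th percentile depended on the peaks taken: it was 217 bp in the strongest 75% of each list and 22.2 bp with equal numbers of peaks, where the median differed by 310.5 and 236 bp. All these percentiles separated the conditions, whereas the extremes did not: the narrowest peak of a list was between 306 and 326 bp and the widest between 18997 and 20680 bp, with overlapping conditions.

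The class of peaks from 2000 bp to under 4000 bp gained most of the sequence. This class held 31.1%, 30.3% and 29.2% of the covered bases in the untreated lists and 41.6%, 43.8% and 43.0% in the maltonis lists. In absolute terms it grew from 7.41, 7.09 and 6.88 Mb to 10.5, 11.0 and 10.9 Mb, while its number of peaks grew from 2971, 2847 and 2782 to 4186, 4371 and 4317. Every maltonis list was above every untreated list on these values.

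All narrower classes held less. Peaks from 1000 bp to under 2000 bp held 51.1 ± 0.449% of the bases in untreated cells and 43.8 ± 0.867% after maltonis (SD, n = 3). Peaks from 500 bp to under 1000 bp fell from 3768, 3777 and 4069 peaks to 2711, 2408 and 2517, and peaks under 500 bp fell from 1852, 1848 and 1930 to 1380, 1265 and 1289. Neither class overlapped between conditions. Peaks from 500 bp to under 1000 bp fell by 1326 on average and peaks under 500 bp fell by 565, where all peaks of a list fell by 1447. Peaks of at least 4000 bp held 3.37%, 3.16% and 3.03% of the bases in the untreated lists and 3.44%, 3.95% and 3.91% in the maltonis lists. The highest untreated list and the lowest maltonis list were close in this class, and when the strongest peaks were taken in equal number from each list the conditions overlapped.

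**Figure D1:**
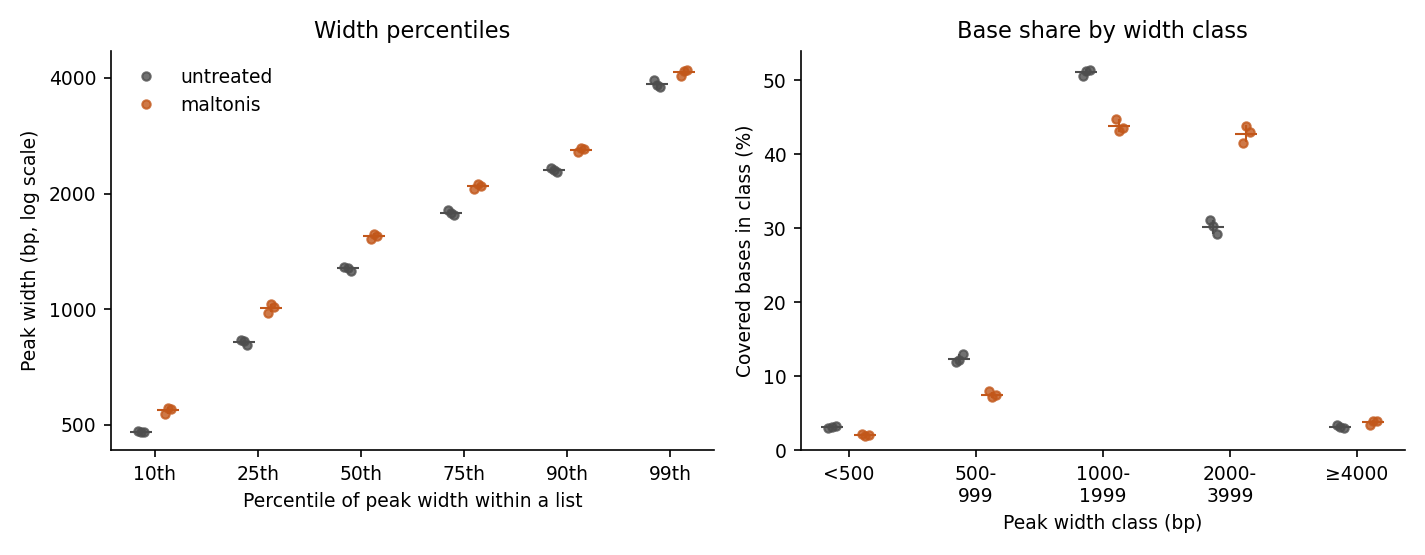
Left, peak width in bp (log scale) at 6 percentiles of each list; right, the percentage of covered bases in 5 width classes. Each point is 1 list, horizontal ticks are means and vertical bars are SD (n = 3); the maltonis lists lie above the untreated lists at every percentile, and the class from 2000 bp to under 4000 bp rises from about 30.2% to 42.8% of the bases.

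Width was then read by strength. In each list the peaks were ranked by fold enrichment and divided into quintiles, from the weakest to the strongest 20% of peaks. In untreated cells the weakest quintile was narrow (798, 790 and 821 bp), the third quintile was the widest (1843, 1784 and 1735 bp) and the strongest quintile was of medium width (1230, 1217 and 1190 bp). The same order was seen after maltonis, with 948, 942 and 954 bp in the weakest quintile, 2052, 2118 and 2102 bp in the third, and 1408, 1434 and 1429 bp in the strongest. In each of the 5 quintiles the maltonis lists were above the untreated lists. The largest relative difference was in the second quintile, where the median width was 904, 901 and 871 bp in untreated lists and 1194, 1428 and 1313 bp in maltonis lists, a difference of 47.1%; in the other quintiles it was between 13.5% and 18.1%. Which quintile differed most depended on the setting. The difference in the weakest quintile was 145 bp, but 1013 bp in the strongest 75% of peaks and 61.0 bp with strength taken as −log10 q, and in the second quintile it was 419.8 bp, but 172 bp with equal numbers of peaks and 242 bp with −log10 q; the strongest quintile differed by 307 bp with −log10 q and by 204 to 226 bp otherwise, when no list was left out. The second quintile was also the class with the widest spread between maltonis lists (SD 117 bp against 18.5 bp in untreated lists).

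These quintiles hold different peaks in different lists, so the same places were compared next. Peaks of the 6 lists that overlapped by at least 1 bp were merged into 26539 regions, of which 12099 were called in all 6 lists and 12025 held exactly 1 peak in each list. The latter, called matched regions, took in 69.4 to 71.1% of the peaks of an untreated list and 75.4 to 78.0% of those of a maltonis list. Because a matched region is called in both conditions, peaks seen in a single condition have no part in what follows. Among matched regions, the rank order of width was closer within conditions (Spearman rho 0.886 to 0.902 over 6 pairs of lists) than between them (0.814 to 0.825 over 9 pairs), and so was that of strength (0.934 to 0.952 against 0.839 to 0.8496). These correlations are across regions, which are not independent replicates, and are given as a description.

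The widening was present at the same places. The median width of the matched regions was 1486, 1471 and 1446 bp in the untreated lists and 1695, 1736 and 1732 bp in the maltonis lists, and the median region was 13.7% wider after treatment. Of the 12025 regions, limma on log2 width called 4685 wider (39% of those tested) and 219 narrower (1.82%) at a Benjamini-Hochberg adjusted p of at most 0.05. Regions called wider were 1528, 1509 and 1487 bp at the median in untreated lists and 1924, 1958 and 1941 bp in maltonis lists, a median gain of 381 bp or 24.2%. Regions called narrower went from 1457, 1508 and 1460 bp to 991, 1003 and 979 bp, a median change of −367 bp. The 7121 regions without a call were 6.61% wider at the median. With the maltonis replicate 2 list left out, 2987 regions were called wider.

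By width class, the smallest and the largest matched regions widened least in relative terms when classes were taken over all 6 lists. The matched regions were divided into quintiles by their mean within-list width rank over the 6 lists, 2405 regions each. In the narrowest quintile the median width was 886, 870 and 863 bp in untreated lists and 965, 997 and 979 bp in maltonis lists. In the middle quintile it was 1479, 1461 and 1441 bp against 1683, 1718 and 1713 bp, and in the widest quintile 2402, 2381 and 2341 bp against 2632, 2689 and 2664 bp. The conditions were apart in every quintile. The narrowest quintile differed by 107 bp, but by 151 bp with classes from untreated replicate 1 and by 145.5 bp in the strongest 75% of peaks. In the same settings the widest quintile differed by 287, 263.5 and 298 bp. How the quintiles compare in relative terms was not computed for these alternatives. The median log2 ratio of width was 0.16, 0.21, 0.21, 0.20 and 0.14 from the narrowest to the widest quintile. The ratio of the widest to the narrowest quintile was 2.71, 2.74 and 2.71 in untreated lists and 2.73, 2.70 and 2.72 in maltonis lists, with overlapping conditions (exact permutation p = 0.8), and the difference of the means was −0.00493; the middle quintiles were not tested against the outer ones.

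The share of regions called wider had another shape: it was lowest in the narrowest quintile (18.9%), 36.7%, 44.7% and 50.7% in the next ones, and 43.7% in the widest. Regions called narrower were most frequent in the narrowest quintile, with 91 of 2405, against 28 to 36 in the other quintiles. The narrowest quintile also had the least certain edges, with a median SD between replicate lists of 72.7 bp in untreated and 96.9 bp in maltonis lists, compared with 51.4 and 57.6 bp in the widest quintile.

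By strength class, the weakest matched regions widened least and the strongest widened most in relative terms. The weakest quintile had a median width of 1606, 1600 and 1566 bp in untreated lists and 1737, 1823 and 1808 bp in maltonis lists. The strongest quintile had 1195, 1191 and 1161 bp against 1387, 1418 and 1398 bp. The difference in median width rose from 12.5% in the weakest quintile through 15.6%, 17.7% and 17.9% to 18.5% in the strongest. The ratio of the median width of the strongest to that of the weakest quintile tested this directly: it was 0.744, 0.744 and 0.741 in untreated lists and 0.799, 0.778 and 0.773 in maltonis lists, without overlap (exact permutation p = 0.1). In base pairs, however, the strongest minus the weakest quintile was −411, −409 and −405 bp in untreated lists and −350, −405 and −410 bp in maltonis lists, and the conditions overlapped. The difference of the ratio was 0.0399 and stayed without overlap under every alternative tried (0.0243 to 0.0990). That in base pairs was 20.0 bp and turned with the setting, from −77.3 bp in the strongest 75% of peaks to 164 bp with strength as −log10 q, both without overlap, and it was −4.00 bp with chromosome X, with overlap. Without maltonis replicate 1, 2 or 3 it was 45.7, 52.3 and 61.7 bp, and without untreated replicate 1 or 3 it was 32.1 and 29.6 bp, all without overlap.

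Calls also differed by strength. Of the weakest quintile, 491 regions (20.4%) were called wider and 77 narrower, and of the strongest quintile 1066 (44.3%) were called wider and 15 narrower. Edges were also less well placed in the weakest quintile, with a median SD between untreated lists of 118 bp compared with 40.1 bp in the strongest.

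**Figure D2:**
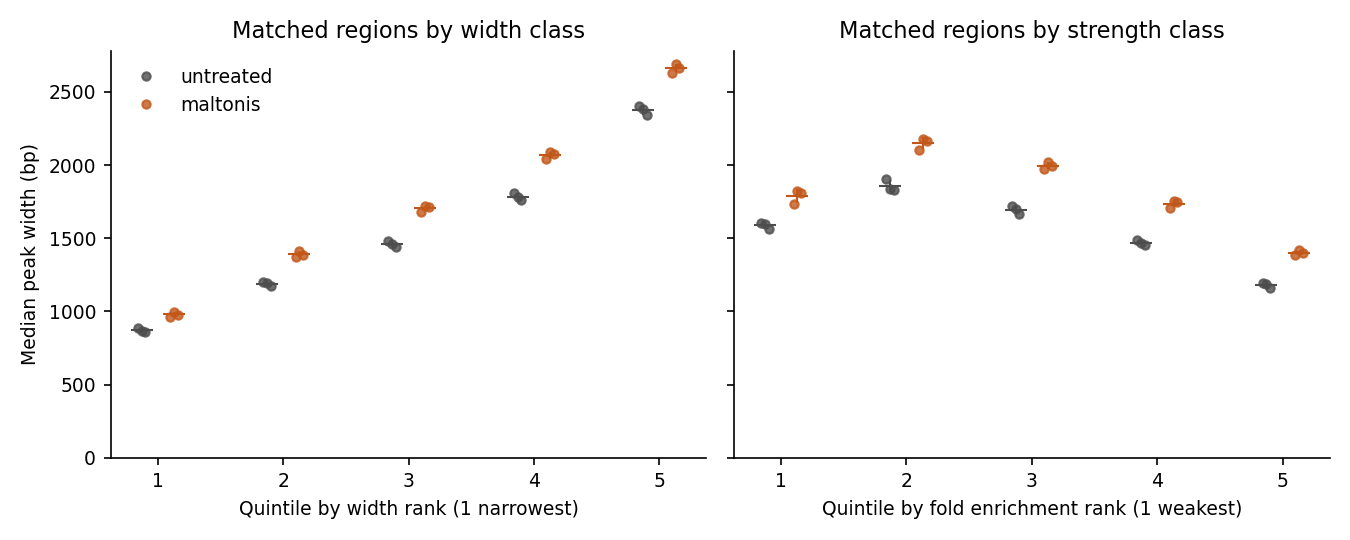
Median width in bp of matched regions in each list, by quintile of within-list width rank (left) and of within-list fold enrichment rank (right), 2405 regions per quintile. Points are lists, horizontal ticks are means and vertical bars are SD (n = 3); the maltonis lists lie above the untreated lists in all 10 groups, and the widest regions by strength are in the second quintile.

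The widening was then placed at the edges of the peaks. For each matched region, each edge was measured from its mean position over the 6 lists, with outward counted as positive. The median left edge lay at −37.7, −45.7 and −56.8 bp in the untreated lists and at 33.2, 53.8 and 43.5 bp in the maltonis lists. The median right edge lay at −38.2, −45.8 and −57.8 bp against 36.5, 56.5 and 45.5 bp. Both edges moved outward by a similar length, and the median of the displacement between conditions was 93.7 bp on each side. The median displacement of the centre of a region was 1.67 bp. Left and right refer to the chromosome coordinates and not to the direction of a gene.

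The equality of the left and right medians does not test symmetry, because regions were not oriented by the direction of a gene. Movement on a single side relative to gene direction could give equal medians too. The edges of single regions were less even than these medians. The left edge was outward in all 3 maltonis lists relative to all 3 untreated lists in 5211 regions (43.3%) and the right edge in 5289 (44%). Both edges were outward in 2372 regions (19.7%), whereas in 4889 (40.7%) a single edge was outward and the other overlapped between conditions. An overlapping edge is not shown to be unmoved, so this count does not measure how many regions widened on a single side. In 867 regions (7.21%) an edge moved outward and the opposite edge inward, and in 47 (0.391%) both moved inward. Across the 12025 regions the displacements of the left and the right edge were nearly unrelated (Pearson r = −0.0896, Spearman rho = −0.0617), which is a description over regions of the same 6 lists. In the regions called wider, a median of 75.8% of the added length lay on the side that moved more. The larger movement is taken by definition, so this share cannot fall below an even split and does not test symmetry.

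The length of the displacement varied with the width class. The median left displacement was 36.3 bp in the narrowest quintile, 76.3 and 102 bp in the next ones, and 125 and 118 bp in the 2 widest, and the right edge had 33.3, 86.0, 105, 120.3 and 118 bp. Both edges were outward in 4.20% of the narrowest quintile and in 29.0% of the widest. By strength the middle quintile moved most, with 116 bp on the left and 105 bp on the right, compared with 66.3 and 73.0 bp in the weakest and 78.3 and 83.0 bp in the strongest quintile. Regions with a single edge outward and the other overlapping were most frequent in the strongest quintile (51.0%, compared with 29.8% in the weakest). Of all edges, 14.3% moved outward by more than 300 bp and 9.89% moved inward by more than 100 bp.

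**Figure D3:**
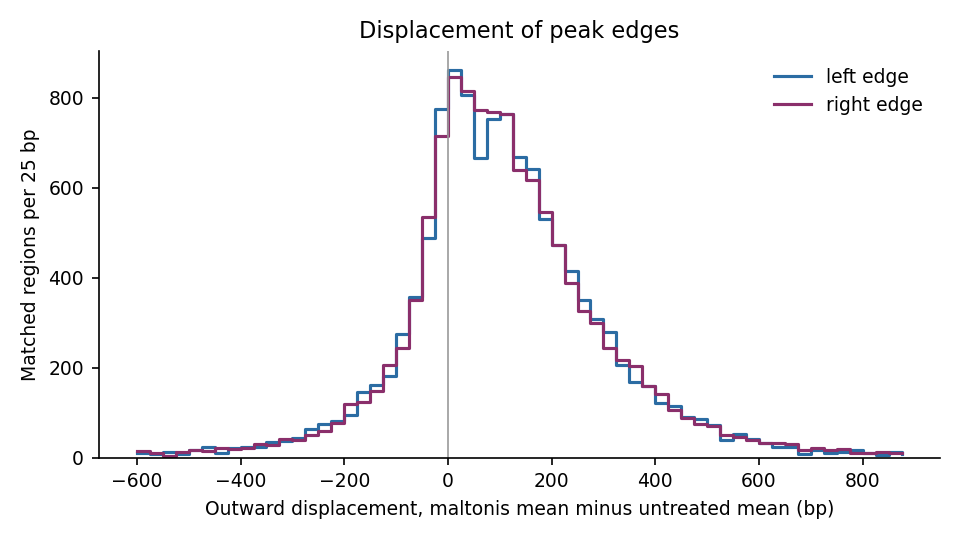
Number of matched regions per 25 bp of outward displacement (maltonis mean minus untreated mean, in bp) for the left and the right edge, over 12025 regions. Both curves lie mainly to the right of 0 with a median of 93.7 bp and overlie each other; displacements below −600 and above 900 bp are not drawn.

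Counted in bases, the change was at the borders of existing peaks. Bases covered in all 3 maltonis lists and in no untreated list summed to 1.74 Mb, and the reverse to 0.471 Mb, beside 16.4 Mb covered in all 6 lists. Of the gained bases, 1.61 Mb (92.3%) lay at the edge of a region that both conditions had, in 10963 stretches with a median length of 101 bp. Gaps inside a region gave 0.0310 Mb, and regions found in maltonis lists alone gave 0.103 Mb in 209 regions. The lost bases were divided differently, with 0.270 Mb (57.3%) at edges in stretches of a median of 52 bp and 0.191 Mb (40.6%) in 423 regions found in untreated lists alone. When 2 of 3 lists of a condition were enough, the sums were 3.12 Mb gained and 1.43 Mb lost.

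Fusion of neighbouring peaks had a small share in this. No list held 2 peaks closer than 2401 to 2408 bp, so neighbours within 1000 or 2000 bp cannot occur in these lists, and the fraction of peaks with the next peak within 5000 bp was 3.09%, 3.12% and 2.88% in untreated and 3.04%, 3.34% and 3.25% in maltonis lists, with overlap (apart without maltonis replicate 1, with a difference of 0.261 percentage points). Of the 12099 regions called in all lists, 36, 47 and 44 held 2 or more peaks in the untreated lists and 25, 25 and 17 in the maltonis lists. Regions with 2 or more peaks in every untreated list and 1 peak in every maltonis list numbered 13, and the reverse 2.

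The widest of the fused regions was at chr7:5459315-5469973 (hg19), where the peaks of the untreated lists covered 7264, 7289 and 7055 bp in 2 peaks with gaps of 2882, 2832 and 2868 bp between them. In the maltonis lists 1 peak covered 9148, 10302 and 10659 bp. At chr9:139921286-139929727 the untreated lists had 5651, 4900 and 4850 bp in 2 peaks and the maltonis lists 8039, 8123 and 8094 bp in 1 peak. At chr2:65657837-65664817 they had 3986, 3902 and 3051 bp against 6981, 6873 and 6737 bp. In all 3 regions the sum of bases rose by more than the spread between lists. A rise follows from how these regions were chosen, since the single peak takes in the former gap. On chromosome 9 that gap was 2643, 3290 and 3570 bp in the untreated lists. For the split regions a fall follows in the same way. The 2 split regions went the other way: at chr12:46119659-46125430 a single peak of 5207, 5398 and 5052 bp became 2 peaks with 3149, 3330 and 3292 bp in sum, and at chr1:15849825-15854330 one of 3994, 4130 and 3947 bp became 2 peaks with 1859, 1900 and 1916 bp. H3K27ac peaks of all 6 lists overlapped each of these 5 regions.

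Strength was more even within the maltonis lists. The 90th percentile of fold enrichment was 1.59, 1.58 and 1.58 times the median in the untreated lists and 1.46, 1.45 and 1.45 times in the maltonis lists, without overlap (exact permutation p = 0.1). The median was 1.57, 1.54 and 1.50 times the 10th percentile in untreated lists and 1.42, 1.48 and 1.46 times in maltonis lists, also without overlap. Within the matched regions the first ratio was 1.449 ± 0.00327 in untreated and 1.382 ± 0.00469 in maltonis lists (SD, n = 3). The rank correlation of width and strength over the peaks of a list was 0.213, 0.209 and 0.190 in untreated and 0.155, 0.115 and 0.143 in maltonis lists, a description over 15418 to 17333 peaks per list.

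The narrower spread of strength went together with the widening. Matched regions were grouped by their log2 ratio of width, which makes the width side of this comparison a description of how they were grouped. In the 1842 regions whose width stayed within 0.07, a change of at most 4.97%, the ratio of the 90th percentile to the median was 1.43, 1.43 and 1.43 in untreated and 1.42, 1.43 and 1.42 in maltonis lists, with overlapping conditions; without untreated replicate 2 they were apart, with a difference of −0.0111, and without maltonis replicate 1 the difference changed sign, to 0.0123, with overlap. In the 3503 regions wider by 0.2 to 0.4 it was 1.40, 1.41 and 1.41 against 1.35, 1.36 and 1.35. In the 2144 regions wider by more than 0.4 it was 1.45, 1.44 and 1.46 against 1.34, 1.32 and 1.33. With equal numbers of peaks the regions of stable width were also apart, with a difference of −0.00898, compared with −0.0515 in the regions wider by 0.2 to 0.4 among all peaks. The fold enrichment is a mean over the called peak, so added flanks enter that mean, and their part in these values was not tested.

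The within-list rank of strength was read in the same groups. In the regions wider by more than 0.4 the median strength percentile was 70.4, 70.3 and 71.1 in untreated lists and 58.0, 57.0 and 57.3 in maltonis lists. In the regions of stable width it was 59.6, 58.8 and 60.04 against 63.0, 60.9 and 61.7, higher and also without overlap. In the 858 regions narrower by more than 0.2 it was 43.5, 43.3 and 45.1 against 38.5, 36.3 and 37.6. Such a fall was not particular to narrowed regions. Over all matched regions of the weakest strength quintile, the mean of the list medians went from 32.0 to 26.3. In the second strength quintile it went from 50.3 to 45.6. Ranks were taken over all peaks of a list, and more untreated peaks lay outside the matched regions. Over all matched regions, the log2 ratio of width and the log2 ratio of fold enrichment between conditions had a Spearman rho of −0.364 (a description over 12025 regions). This value uses the fold enrichment itself and not its rank within a list.

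**Figure D4:**
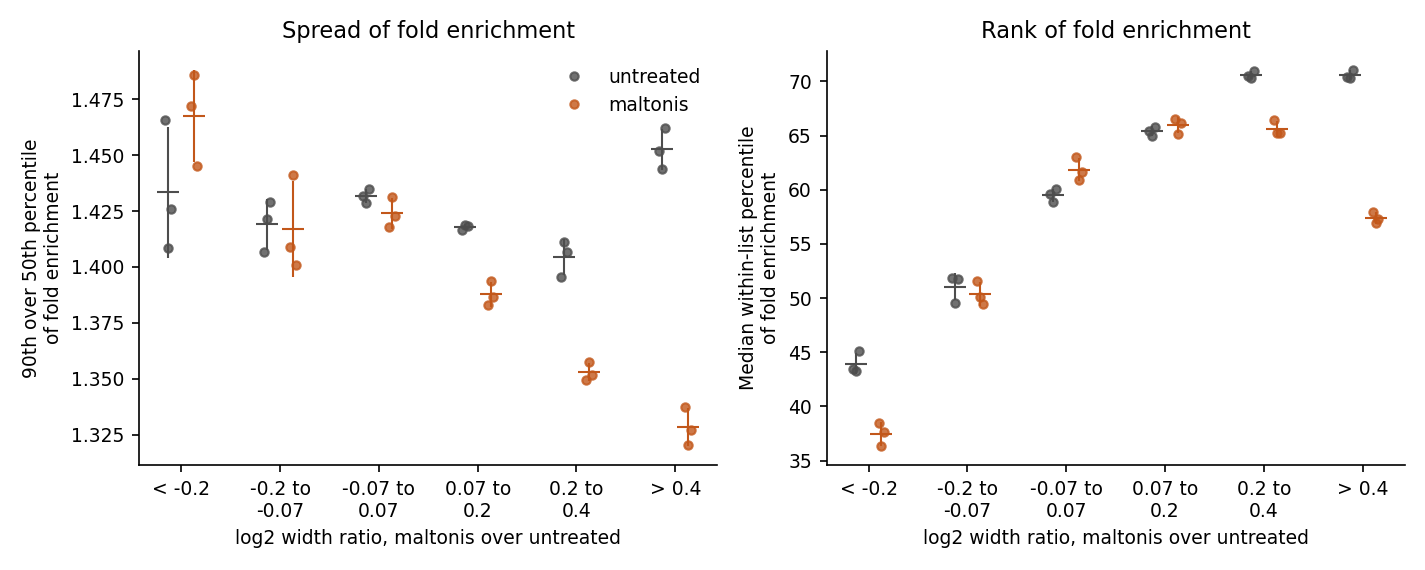
Left, the 90th percentile over the median of fold enrichment; right, the median within-list percentile of fold enrichment, for matched regions grouped by their log2 width ratio. Points are lists, horizontal ticks are means and vertical bars are SD (n = 3), and the vertical axes do not start at 0; the 2 conditions separate most in the 2144 regions wider by more than 0.4.

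Tests on ranks removed the general widening and asked which regions changed place within a list. On width rank, limma called 837 matched regions higher (6.96%) and 1497 lower (12.4%). These calls depended strongly on the model: with a replicate block 12 were higher and 17 lower. At an adjusted p of at most 0.01 without the block, 200 were higher and 161 lower. On strength rank limma called 950 higher (7.9%) and 2161 lower (18%), and 596 and 1517 with the block. Ranks were taken over all peaks of a list, and a larger share of the peaks of the untreated lists lay outside the matched regions. With ranks taken over the matched regions alone, chosen after the data were seen, the calls were 988 higher and 936 lower on width and 1519 higher and 1559 lower on strength, and the excess of lower calls was not seen with that ranking. Leaving out 1 list at a time gave 434 to 559 regions higher and 430 to 896 lower in width rank, with every left-out list moving the lower calls by more than 1.5 times; in strength rank the calls were 486 to 507 higher and 1248 to 1310 lower without an untreated list and 616 higher without maltonis replicate 3. All 837 regions of higher width rank were also called wider, while 1272 of the 1497 regions of lower width rank had no call on width itself. Of the regions called wider, 29.9% were lower and 3.09% higher in strength rank, compared with 10.2% and 10.7% of the regions with no width call. Among the 219 regions called narrower, 16.9% were lower and 20.1% higher. Higher strength rank was most frequent in the strongest quintile (12.8%) and least in the weakest (4.12%), and rarest in the widest quintile (3.16%). Lower strength rank was called more often in each of these, at 15.6% of the strongest, 19.0% of the weakest and 21.2% of the widest quintile.

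The regions with the largest gain in width rank added most of their length on one or both sides of a small peak. The region at chr8:103207946-103211689 (hg19) was 1322, 1240 and 422 bp wide in untreated lists and 3566, 3628 and 3583 bp in maltonis lists (log2 difference 2.02 ± 0.46 SE, limma adjusted p = 0.0221), with 1108 bp added on the left and 1489 bp on the right. At chr5:392869-395296 the widths were 474, 542 and 829 bp against 1886, 2204 and 2405 bp, with 1458 bp of the addition on the right and 92.0 bp on the left. At chr12:57870674-57873342 they were 577, 718 and 1016 bp against 2570, 2081 and 2534 bp. The widths of the maltonis lists exceeded those of the untreated lists in each of these regions, and the untreated lists differed among themselves, most at the region on chromosome 8.

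The other 2 regions of this set behaved alike. At chr17:78752546-78755949 the widths were 983, 928 and 1216 bp against 3326, 2412 and 3303 bp, and at chr9:79185154-79187614 they were 620, 856 and 379 bp against 2216, 1720 and 2101 bp, with 724 bp added on the left and 670.0 bp on the right. Adjusted p values from limma were between 0.00342 and 0.0221 over the 5 regions. None of the 5 was past the threshold on strength rank, with limma adjusted p values between 0.0635 and 0.191. They were weak peaks, with mean strength percentiles between 13.9 and 41.5 in untreated lists and between 7.87 and 36.1 in maltonis lists. Edges were less well placed in weak regions, which limits the widths given for these 5.

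The regions with the largest loss of width rank shortened from one side. At chr19:46141953-46145459 the widths were 3507, 3289 and 3419 bp in untreated lists and 645, 552 and 736 bp in maltonis lists (log2 difference −2.41 ± 0.11 SE, limma adjusted p = 0.00094), with the right edge moved inward by a mean displacement of −2557 bp and the left by −203 bp. At chr8:143590478-143593511 they were 2431, 2673 and 2431 bp against 545, 606 and 681 bp, and the left edge carried −1857 bp of the change. At chr2:240186274-240189672 they were 3399, 2664 and 2397 bp against 624, 1052 and 636 bp. The mean within-list width percentile of these 3 regions went from 98.2, 93.0 and 94.97 to 13.4, 12.1 and 17.3, without overlap between conditions.

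At chr12:57852594-57856233 the widths were 3113, 3149 and 3499 bp in untreated lists and 1044, 778 and 914 bp in maltonis lists, the right edge moving by −2599 bp. This region lay 14.4 kb from the region on chromosome 12 that gained width, so the 2 opposite changes were found side by side. At chr16:10962363-10965420 the widths were 2325, 2585 and 2220 bp against 847, 902 and 770 bp, and here the left edge moved outward by 363 bp while the right moved by −1900.3 bp. In all 5 narrowed regions at least 80% of the summed movement of both edges was on 1 edge, compared with 2 of the 5 widened regions. The region on chromosome 16 was the one of the 10 past the threshold on strength rank, rising from the 12.2, 6.09 and 10.4 percentile of strength to the 39.0, 44.9 and 42.4 (limma adjusted p = 0.00245). H3K27ac peaks of all 6 lists overlapped all 10 regions.

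The largest gains of strength rank were found at 3 regions of different width. At chr3:195384346-195385151 the strength percentile was 46.0, 45.1 and 43.04 in untreated lists, and in maltonis lists it was 94.2 at the lowest with a mean of 97.2 ± 2.64 (SD, n = 3) (limma adjusted p = 0.00196), with widths of 648, 727 and 587 bp against 782, 529 and 528 bp that overlapped between conditions. At chr18:60171353-60174139 it was 32.3, 31.8 and 28.9 against 87.3, 82.7 and 74.0, and at chr1:179098551-179099671 it was 29.2, 32.9 and 45.9 against 87.7, 85.8 and 85.4. On chromosome 18 the widths were 679, 1160 and 903 bp against 2752, 1056 and 1075 bp. Those on chromosome 1 were 570, 917 and 508 bp against 1065, 1121 and 980 bp, without overlap (limma adjusted p = 0.0583 on log2 width). A gain of strength rank was thus found with overlapping widths at the regions on chromosomes 3 and 18.

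The largest losses of strength rank were as steep. At chr14:21566643-21567535 the percentile fell from 63.0, 63.8 and 64.9 to 0.993, 0.931 and 4.89, with widths of 487, 478 and 677 bp against 513, 555 and 754 bp that overlapped. At chr19:42462784-42463664 it fell from 88.6, 97.9 and 88.0 to 29.6, 34.0 and 43.6, and at chr22:50623791-50625536 from 74.0, 83.6 and 88.3 to 29.8, 26.2 and 22.8 (limma adjusted p between 0.0018 and 0.00411 over the 3 regions). The widths on chromosome 19 were 877, 751 and 707 bp against 424, 625 and 564 bp, and on chromosome 22 943, 864 and 881 bp against 1487, 1561 and 1502 bp. Neither overlapped between conditions, and the part of these width changes in the loss of rank was not tested. The region on chromosome 19 overlapped an H3K27ac peak in all 3 untreated lists and in no maltonis list. The region on chromosome 3 that gained rank overlapped none of the 6 H3K27ac lists, while the other 4 overlapped all of them.

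Whether a peak was found in another list varied more with its strength than with condition. For each list, the share of peaks that overlapped a peak of another list was averaged over the other lists of its own condition and over those of the other condition. Peaks of the weakest quintile of the untreated lists were found in other untreated lists at 40.7%, 41.6% and 38.1%, and in maltonis lists at 32.7%, 33.1% and 32.1%. In the second quintile the shares were 73.9%, 74.4% and 69.7% against 62.8%, 63.2% and 58.4%, and in the third 98.3%, 99.01% and 98.2% against 94.4%, 94.8% and 93.6%. The strongest quintile was found in at least 99.8% on either side. The loss across conditions in the untreated lists therefore lay in the weak peaks, and it was largest in the second quintile, where the shares across conditions differed from the own-condition shares by −11.1, −11.2 and −11.3 percentage points.

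The reverse was smaller. Peaks of the weakest quintile of the maltonis lists were found in other maltonis lists at 43.7%, 51.3% and 48.5% and in untreated lists at 41.9%, 49.4% and 47.5%, and those of the second quintile at 79.1%, 87.1% and 84.2% against 76.3%, 84.0% and 81.0%. The untreated lists hold more peaks, which bears on these shares. When each list was cut to the same number of its strongest peaks by −log10 q, the weakest quintile of the untreated lists was found at 51.7%, 51.2% and 53.1% within and 46.3%, 45.8% and 48.2% across conditions, and that of the maltonis lists at 50.9%, 50.4% and 50.4% within and 43.2%, 44.2% and 44.1% across. The difference between conditions in the weakest quintile was then reversed, and in the second quintile it kept its direction.

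**Figure D5:**
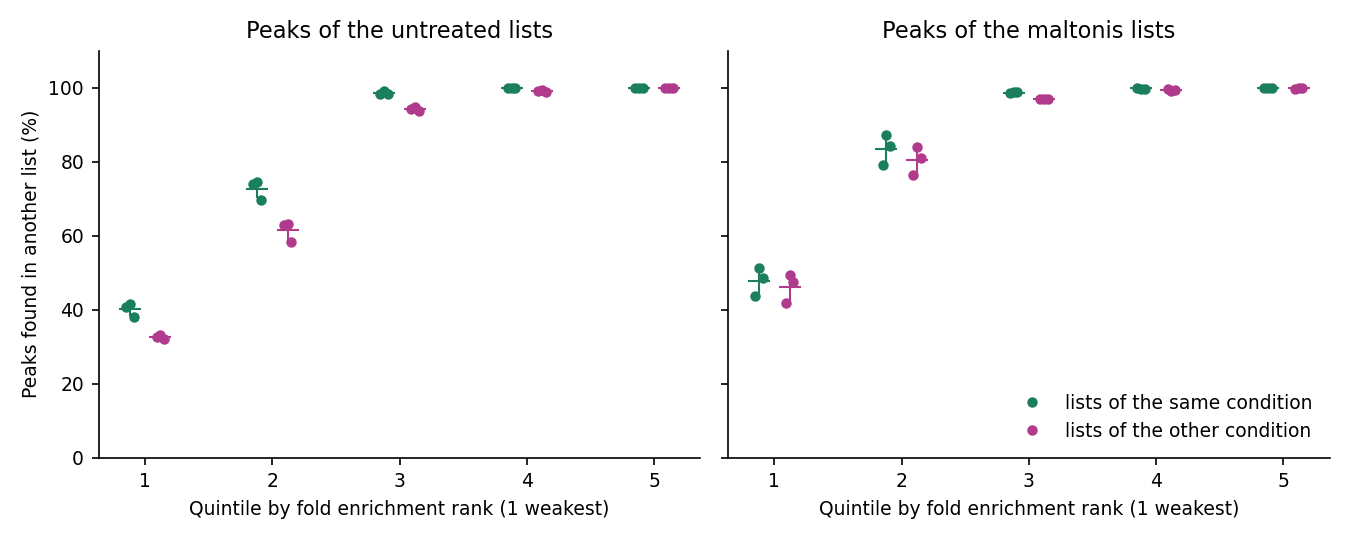
Percentage of the peaks of a list that overlap a peak of another list, by quintile of within-list fold enrichment rank, averaged over the other lists of the same condition or over those of the other condition. Points are lists, horizontal ticks are means and vertical bars are SD (n = 3); from the third quintile upwards at least 93.6% of peaks are found in either set of lists.

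By width, untreated peaks under 500 bp were found in 35.7%, 37.5% and 34.5% of cases in other untreated lists and in 25.3%, 26.2% and 24.8% in maltonis lists. Maltonis peaks of this class were found in 31.8%, 37.5% and 36.0% within and 31.4%, 37.3% and 37.3% across conditions. At 2000 bp to under 4000 bp the shares of the untreated peaks were 92.4%, 92.3% and 90.8% within and 91.5%, 91.3% and 89.7% across. The narrow class was thus the least recurrent one even between replicates of the same condition.

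The widening was found on all autosomes. The median width of matched regions was higher in the maltonis lists on 22 of 22 chromosomes without overlap, by 14.1% on chromosome 22 up to 20.9% on chromosome 15. The share of matched regions called wider ranged from 34.5% on chromosome 21 to 43.8% on chromosome 4. The number of peaks was lower on 22 of 22 chromosomes without overlap, with changes from −14.2% on chromosome 20 to −5.11% on chromosome 18. Covered sequence was higher without overlap on 20 chromosomes. On chromosome 20 it was 0.743, 0.729 and 0.737 Mb in untreated and 0.752, 0.730 and 0.719 Mb in maltonis lists, and on chromosome 21 it was 0.273, 0.287 and 0.298 Mb against 0.309, 0.306 and 0.297 Mb, both with overlap.

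The widening was present in sparse and in dense neighbourhoods. With no other region within 50 kb, the median width of the 3436 matched regions was 1519, 1507 and 1482 bp in untreated and 1737, 1792 and 1777 bp in maltonis lists, and with 5 or more neighbours that of 865 regions was 1483, 1444 and 1445 bp against 1697, 1710 and 1724 bp. The difference in the latter was 253 bp, and 445 bp when neighbours were counted within 20 kb. Regions with 5 or more neighbours within 20 kb are a part of these 865, and their number is not given here. With the window of 50 kb, wider calls were made in 42.2% of the 3436 regions without a neighbour. The share was 38.0% of the 7724 regions with 1 to 4 neighbours and 34.5% of the 865 regions with 5 or more. A difference between these classes was not tested.

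The other marks were read on the matched regions. H3K27ac peaks, which are broader (median 3200 to 4600 bp) and cover 169 to 226 Mb, overlapped 98.5%, 98.4% and 98.3% of the matched regions in untreated lists and 97.6%, 98.1% and 97.9% in maltonis lists. In the regions called wider it was 99.6%, 99.6% and 99.6% against 99.7%, 99.7% and 99.7%. In the 219 regions called narrower it was 98.2%, 97.3% and 97.3% against 87.2%, 89.5% and 87.7%, and 12 of them had an H3K27ac peak in all 3 untreated and in no maltonis list. Of all 12025 matched regions 59 had this pattern, with 47 of the 7121 without a width call and 0 of the 4685 called wider. Of the bases lost at edges, 94.5%, 94.6% and 95.7% were under H3K27ac peaks of untreated lists and 78.8%, 81.4% and 79.4% under those of maltonis lists. Of the bases lost with whole regions, the shares were 79.5 ± 2.14% against 48.1 ± 2.1% (SD, n = 3). Gained edge bases were under H3K27ac peaks already in the untreated lists, at 98.4%, 98.5% and 98.6%, and at 99.1%, 99.2% and 99.1% after maltonis. Of the bases covered in every H3K4me3 list, 98.6%, 98.6% and 98.7% were under H3K27ac peaks of untreated lists. Under those of maltonis lists the shares were 98.2%, 98.5% and 98.3%. Places where H3K4me3 narrowed or ended were thus less often under H3K27ac peaks of the maltonis lists. Places where H3K4me3 widened were nearly all under H3K27ac peaks in both conditions. The same held for bases covered in every list, so it was not particular to widening.

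H3K9me3 peaks covered 141 to 170.3 Mb and overlapped 16.0%, 15.8% and 16.5% of the matched regions in untreated and 20.5%, 20.6% and 20.0% in maltonis lists. The share was higher in the maltonis lists for regions called wider (13.9%, 14.2% and 15.1% against 19.0%, 19.2% and 18.3%) and for regions called narrower (22.8%, 20.5% and 20.1% against 26.0%, 25.6% and 23.7%), without overlap in either. The weakest quintile of H3K4me3 regions carried H3K9me3 most, at 26.7%, 25.4% and 25.5% in untreated and 30.7%, 30.5% and 29.4% in maltonis lists, while the strongest quintile had 13.3%, 13.1% and 13.7% against 18.0%, 18.4% and 17.0%. A rise of this share was therefore found in regions that widened, regions that narrowed, and in weak and strong regions alike.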

How the data were processed

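ChIP-seq libraries of 3 untreated and 3 maltonis-treated NB4 replicates per mark, called biological triplicates in the study's methods, were sequenced as single reads. The submitters' processing notes name BWA, SAMtools, MACS2, SICER and hg19, without versions. H3K4me3 peaks were called per library with MACS2. The lists deposited by the authors hold a score (not used), the fold enrichment as a ratio over background, and −log10 p and q values; the deposited lists of the other marks hold a read count and a score per peak, of which positions were used. These lists hold no read totals. The study plots them and calls them comparable within a mark; they were not used here, so no interval that needs counts is given.

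Peaks on chromosomes 1 to 22 were ranked within each list in Python, and peaks overlapping by at least 1 bp were matched. List values were compared by the exact permutation test over 20 assignments, and matched regions by limma on log2 width and on normal scores of the ranks, with Benjamini-Hochberg adjustment, after a test on simulated data. Named regions are those called by limma, without overlap, with the largest difference of mean within-list percentile (5 wider, 5 narrower, 3 higher and 3 lower in strength rank), and the 3 widest fused and 2 split regions. Members, classes and lists were chosen with earlier results of these data known. No hg19 annotation or genome was used, so regions carry no gene names or sequences. Alternatives were the strongest 75% of peaks, equal numbers of peaks, chromosome X, each list left out, other strength measures, thresholds and windows, and a replicate block.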

Additional observations from a re-analysis of the deposited data

How the results depend on the processing

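List-level differences in width percentiles, base shares, edges and median widths of matched classes kept their direction but not always their size (10th percentile, 22.2 to 217 bp; weakest quintile, 61.0 to 1013 bp), and the conditions stayed apart, under the stricter peak set, chromosome X, other strength measures and each left-out list; the exception was the share of bases in peaks of at least 4000 bp, where the conditions overlapped with equal numbers of peaks (difference 0.42 percentage points). With equal numbers of peaks, the difference between conditions in how often the weakest quintile was found across conditions reversed to −1.49 percentage points, from 5.9. In regions of stable width the conditions were apart with equal numbers of peaks (difference of the spread ratio −0.00898, from −0.0079), and over the left-out lists the difference was between −0.0111 and 0.0123, reversed in sign without maltonis replicate 1. The base-pair difference between the strongest and the weakest matched quintile reversed to −77.3 bp with the strongest 75% of peaks and to −4.00 bp with chromosome X. The planned neighbour distances of 1000 and 2000 bp gave 0 in every list. Within 5000 bp the difference reversed to −0.0215 percentage points with the strongest 75% of peaks, with the conditions overlapping in both cases.
Neither the labels nor the study's methods state whether the replicate numbers pair the lists. The deviations of same-numbered lists from their condition means of log2 width correlated at −0.0123, −0.00568 and −0.000625. No shared pattern of width was thus seen, which does not settle how the cultures were paired. With a replicate block, limma called 2561 wider and 131 narrower, 12 higher and 17 lower in width rank, and 596 higher in strength rank. At an adjusted p of at most 0.01 it called 1835 wider and 60 narrower, 200 higher and 161 lower in width rank, and 212 higher and 725 lower in strength rank. Over the left-out lists limma called 2987 to 3672 wider, 147 to 210 narrower, 434 to 559 higher and 430 to 896 lower in width rank, and 486 to 687 higher and 1248 to 1806 lower in strength rank. With all regions called in 6 lists, 928 were lower in width rank. With ranks among matched regions, added after the data were seen, 936 were lower in width rank and 1519 higher in strength rank. Strength taken as −log10 q gave 1769 higher and 3703 lower. With 2 of 3 lists enough, 3.12 Mb were gained and 1.43 Mb lost. Requiring the mark in all 6 lists, H3K9me3 was on 5.34% of wider, 10.5% of narrower and 6.98% of all matched regions, against 34.0%, 42.9% and 35.3% in at least 1 list. The cause of these shifts was not tested. The lists hold no read totals, which limits all statements on width and strength.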
